A study of Mus musculus with 12 samples.

Results

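The enteroendocrine lineage transcription factors described here are 9 DNA-binding proteins, Neurog3, Neurod1, Pax4, Pax6, Isl1, Insm1, Nkx2-2, Rfx6 and Foxa2, that start or carry forward the formation of hormone cells in the gut epithelium. They were taken by gene symbol from a list and make up 9 of the 19938 genes measured, and each was read by 1 array feature. RNA came from duodenal segments of mice of strain 129, either wild type or with the Onecut-2 gene (Onecut2) ablated, at postnatal days 15 and 30. The 4 groups were thus wild type at day 15, knockout at day 15, wild type at day 30 and knockout at day 30, with 3 arrays each and 12 in all. Animals were of mixed sex, and each array held RNA pooled from 5 to 8 mice, so the spread between arrays is a spread between pools. The labels give no cell type or promoter that limits the ablation, and no treatment beyond it. All levels below are deposited array values from the robust multi-array average (RMA), taken to be on the log2 scale, where a difference of 1 is a doubling. A gene was called when its p-value from a linear model over all 12 arrays (limma), adjusted over all 19938 genes by the Benjamini-Hochberg method, was under 0.05.

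Enteroendocrine cells are the scattered hormone-secreting cells of the gut epithelium, and new ones form from crypt progenitors throughout life. Neurog3, a basic helix-loop-helix factor expressed for a short time in progenitors that have escaped Notch signalling, is needed to start the lineage. Neurod1, Insm1, Nkx2-2, Pax4, Pax6, Isl1 and Rfx6 act after it and steer or maintain the hormone-producing subtypes, while the forkhead factor Foxa2 is present more widely in endoderm-derived epithelium. Factors of the Onecut family bind DNA through a cut domain and a homeodomain. In the embryonic pancreas and the liver, the related factor Onecut1 is known to bind regulatory sequence of Neurog3 and Foxa2, which is why the lineage factors are of interest when Onecut2 is removed. Most of the 9 factors are also made in pancreatic islets, and Isl1 is also found in neurons and mesenchyme.

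The 250 bases before the transcription start are shown for the 3 factors that moved with age in both genotypes (Neurod1, Isl1 and Rfx6) and for the only factor with a Onecut core in this window (Foxa2). The sequences come from RefSeq on build GRCm38.p6 and run 5′ to 3′ on the gene's strand. Capitals mark the E-box CANNTG, which helix-loop-helix proteins such as Neurog3 and Neurod1 can bind, or the Onecut core ATTGAT, searched on both strands (ATCAAT on the other strand).
Neurod1: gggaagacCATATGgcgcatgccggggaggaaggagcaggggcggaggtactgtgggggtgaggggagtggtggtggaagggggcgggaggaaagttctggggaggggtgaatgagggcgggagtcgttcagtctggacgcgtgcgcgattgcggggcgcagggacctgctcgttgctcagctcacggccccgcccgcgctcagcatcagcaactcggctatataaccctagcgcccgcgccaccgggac
Isl1: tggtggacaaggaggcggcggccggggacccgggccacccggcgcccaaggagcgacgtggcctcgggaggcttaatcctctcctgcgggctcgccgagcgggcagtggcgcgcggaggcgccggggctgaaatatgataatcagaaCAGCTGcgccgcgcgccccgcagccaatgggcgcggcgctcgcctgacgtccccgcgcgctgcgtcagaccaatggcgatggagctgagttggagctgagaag
Rfx6: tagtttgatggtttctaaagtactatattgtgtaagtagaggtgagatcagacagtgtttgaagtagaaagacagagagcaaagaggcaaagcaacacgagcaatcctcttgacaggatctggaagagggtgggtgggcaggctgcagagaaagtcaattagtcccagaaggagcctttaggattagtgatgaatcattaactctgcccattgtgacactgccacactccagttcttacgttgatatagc
Foxa2: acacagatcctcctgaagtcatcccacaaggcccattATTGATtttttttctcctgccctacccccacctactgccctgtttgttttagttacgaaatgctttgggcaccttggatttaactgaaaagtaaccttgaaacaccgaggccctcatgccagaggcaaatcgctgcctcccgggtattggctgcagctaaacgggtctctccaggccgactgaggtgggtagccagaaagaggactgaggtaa
These windows lie at chr2:79456637-79456886 (minus strand) for Neurod1, chr13:116309689-116309938 (minus strand) for Isl1, chr10:51685268-51685517 (plus strand) for Rfx6 and chr2:148046970-148047219 (minus strand) for Foxa2. The E-box of Neurod1 began 242 bases before the start, and that of Isl1 began 103 bases before it. The Rfx6 window held neither motif. In Foxa2 the Onecut core began 213 bases before the start of the most upstream of 3 annotated windows. RefSeq windows were found for 7 of the 9 factors, and Pax4 and Insm1 had no entry. Of those 7, 6 held an E-box in at least 1 window and 1 held the Onecut core, and no copies of the motifs overlapped. Among all 32851 promoter windows of the same length, 66.2% held an E-box and 6.7% held the Onecut core, so an E-box is common in any window of this size. The 7 factors had 10 windows between them, so their counts by factor cannot be set directly against these shares by window. These matches describe letters only, and binding was not examined.

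The ablated gene was lower in every knockout array than in any wild-type array. Onecut2 read 9.55, 9.69 and 9.68 in wild type at day 15 against 8.09, 8.13 and 8.20 in the knockout, a log2 difference of -1.50 (SE 0.06, limma adjusted p = 2e-08). At day 30 it read 9.63, 9.50 and 9.62 in wild type against 8.24, 8.25 and 8.18 in the knockout, a difference of -1.36 (SE 0.06, limma adjusted p = 8.8e-08). The knockout values still lay above 7.56, the 50th percentile of gene means. Whether the feature lies inside the deleted part was not analysed here. The related genes Onecut1 and Onecut3 were not called in any of these comparisons. The mean over 8 genes listed for duodenal epithelium lay between 11.86 and 12.06 on the 12 arrays, and the mean over 2 ileum genes lay between 5.30 and 5.71. These means alone do not place the segments along the gut. Pancreatic acinar genes were also read, and the mean over 11 measured ones (of 15 listed) was 11.97 to 12.05 in wild type at day 15, 11.32 to 11.80 in the knockout at day 15, 11.70 to 12.39 in wild type at day 30 and 11.40 to 11.85 in the knockout at day 30. The mean over 8 measured islet genes (of 9 listed) lay at 7.46 to 7.52, 7.37 to 7.57, 7.40 to 7.44 and 7.36 to 7.39 in the same order of groups. RMA values have no zero, so no islet marker could be read as absent. Among these islet genes Ins2, encoding insulin, ranged from 7.27 to 8.18 over the 12 arrays and Ppy, encoding pancreatic polypeptide, from 7.47 to 7.75.

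**Figure D1:**
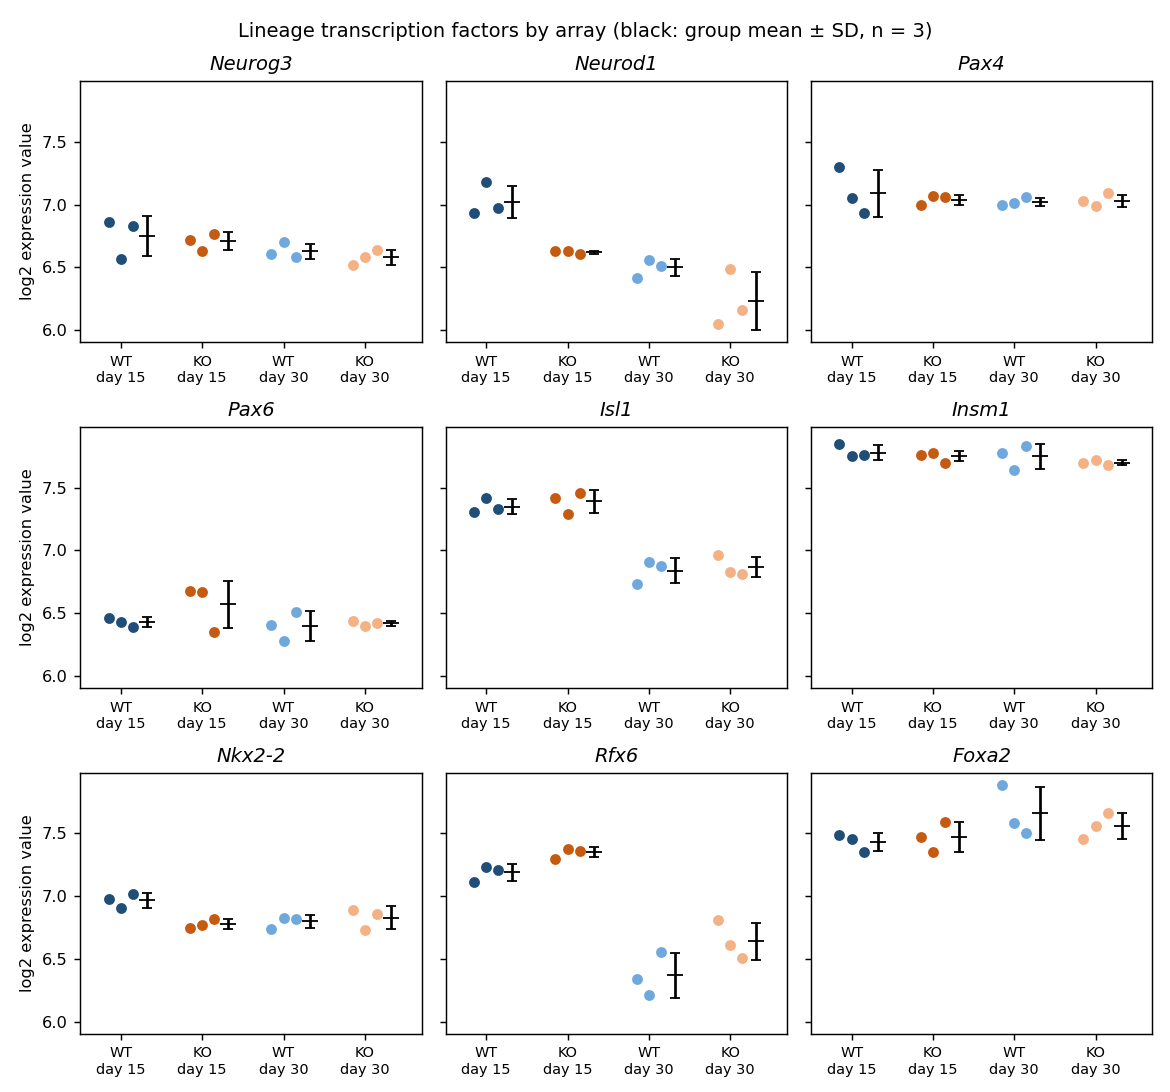
Expression of the 9 lineage transcription factors on each array. Vertical axes give the log2 expression value, coloured points are the 3 arrays of each group (wild type, WT, and Onecut2 knockout, KO, at days 15 and 30), and the black marks give the group mean ± SD; Rfx6, Isl1 and Neurod1 step down from day 15 to day 30, while Neurog3, Pax4 and Insm1 stay near the same level in all 4 groups.

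Between day 15 and day 30, the period in which mice are weaned, 3 of the 9 factors fell in both genotypes: Rfx6, Isl1 and Neurod1. Rfx6 fell the most, 1.76-fold in wild type and 1.63-fold in the knockout, and Isl1 fell 1.43-fold in each. A further factor, Nkx2-2, fell by 0.17 on the log2 scale in wild type. Neurog3, Pax4, Pax6, Insm1 and Foxa2 were not called with age in either genotype. In all, 4 of 9 factors were called lower and 0 higher in wild type, where 29.3% of all genes were called, 17.0% lower and 12.3% higher. In the knockout 3 of 9 were called lower and 0 higher, where 31.0% of all genes were called, 17.2% lower and 13.8% higher. The median change over the 9 factors was -0.12 in each genotype, against 0.02 in wild type and 0.03 in the knockout over all genes. Array medians over all genes fell slightly with age, from 7.59 to 7.60 and 7.56 to 7.58 at day 15 (wild type and knockout) to 7.52 to 7.54 and 7.51 to 7.52 at day 30. When the arrays were set to equal medians, the share of called genes that were lower went from 58.0% to 39.6% in wild type and from 55.4% to 40.9% in the knockout. Rfx6, Isl1 and Neurod1 were still called lower in both genotypes on that scale, whereas Nkx2-2 lost its call (-0.11, limma adjusted p = 0.15) and Foxa2 in wild type gained a call as higher (0.29, limma adjusted p = 0.036). A repeated quantile normalization gave Foxa2 the same value and a call (limma adjusted p = 0.040), and there Nkx2-2 was not called either (-0.16, limma adjusted p = 0.064).

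Other tissue components of the segment changed over the same interval. All 12 smooth muscle genes fell with age in each genotype, by a median of -0.64 in wild type and -0.47 in the knockout. Their mean went from 10.44 to 10.54 and 10.17 to 10.34 at day 15 (wild type and knockout) to 9.75 to 9.88 and 9.75 to 9.78 at day 30. Of 11 measured enteric neuron genes (of 12 listed), 7 fell in wild type and 6 in the knockout, and none rose. Their mean went from 7.25 to 7.32 and 7.28 to 7.31 at day 15 to 6.89 to 6.98 and 6.92 to 6.96 at day 30. All 7 Paneth cell genes rose with age in wild type and 6 of 7 in the knockout, with means of 10.42 to 10.52 and 10.98 to 11.10 at day 30 against 9.09 to 9.31 and 10.32 to 10.56 at day 15. When the model also held the mean of the smooth muscle genes, none of the 9 factors was called with age in either genotype, and only 23 genes (wild type) and 143 genes (knockout) of all were. A model that held the enteric neuron mean instead, an alternative chosen after seeing the data, left 16 and 14 genes called and none of the 9 factors. In that model the fitted changes were -1.22 (SE 0.44) and -1.10 (SE 0.43) for Rfx6, -0.71 (SE 0.34) in each genotype for Isl1, and -0.48 and -0.34 (SE 0.49 in both) for Neurod1, with wider errors than in the model of groups alone. The ranges of the muscle, nerve and Paneth means did not overlap between the ages within a genotype. A model that holds the muscle or nerve mean can therefore hardly separate it from age, and the lost calls decide nothing. The part of these tissues in the age results was not tested. In bulk tissue, fewer cells of a type and less RNA per cell cannot be told apart.

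Neurog3, which starts the lineage, was not called in any comparison (probe set 10363545, chromosome 10). It read 6.86, 6.57 and 6.83 in wild type at day 15 and 6.72, 6.63 and 6.77 in the knockout. At day 30 it read 6.61, 6.70 and 6.58 in wild type and 6.52, 6.58 and 6.64 in the knockout. The groups overlapped between ages and between genotypes, with the spread in wild type at day 15 set by its replicate 2. The age change was -0.12 in each genotype (95% interval -0.29 to 0.04 in both, limma adjusted p = 0.26 and 0.25). Without wild type day 15 replicate 2 the wild-type change was -0.21 and was called (limma adjusted p = 0.040).

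Neurod1, a helix-loop-helix factor that Neurog3 switches on and that mice need to form secretin and cholecystokinin cells, was highest in wild type at day 15 and lowest in the knockout at day 30 (probe set 10484276, chromosome 2). It read 6.93, 7.18 and 6.97 in wild type at day 15 (mean 7.02 ± 0.13, SD, n = 3) and 6.63, 6.63 and 6.61 in the knockout (6.62 ± 0.01, SD, n = 3). At day 30 it read 6.42, 6.56 and 6.51 in wild type (6.50 ± 0.07, SD, n = 3) and 6.05, 6.49 and 6.16 in the knockout (6.23 ± 0.23, SD, n = 3). Every day 30 array lay below every day 15 array of the same genotype. In wild type it fell by 0.53 with age (SE 0.10, 1.44-fold, limma adjusted p = 0.0013). In the knockout it fell by 0.39 (SE 0.10, 1.31-fold, limma adjusted p = 0.0099). In the order of the 4 group means, knockout at day 15 and wild type at day 30 were the nearest neighbours, and their arrays did not overlap, though that pair was not tested. Replicate 2 of the knockout at day 30 reached into the wild-type range.

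Insm1, a zinc-finger factor shared by many endocrine and neural cells, varied little (probe set 10476814, chromosome 2). It read 7.85, 7.75 and 7.76 in wild type and 7.76, 7.78 and 7.70 in the knockout at day 15, and 7.78, 7.64 and 7.83 in wild type and 7.70, 7.72 and 7.68 in the knockout at day 30. All 4 groups lay within 7.64 to 7.85. The 95% interval of its age change ran from -0.17 to 0.09 in wild type and from -0.18 to 0.08 in the knockout, so changes of the size seen in Isl1 and Rfx6 lay outside it.

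Nkx2-2, a homeodomain factor needed for several hormone cell types, stood higher in wild type at day 15 than in the other groups (probe set 10488366, chromosome 2). It read 6.98, 6.91 and 7.02 there and 6.75, 6.77 and 6.82 in the knockout at day 15. At day 30 it read 6.74, 6.83 and 6.82 in wild type and 6.89, 6.73 and 6.86 in the knockout. The wild-type arrays of the 2 ages did not overlap, while the other 3 groups overlapped one another. The fall with age in wild type was 0.17 (SE 0.06, 1.13-fold, limma adjusted p = 0.044), and the change in the knockout was 0.04 (SE 0.06, limma adjusted p = 0.61). The wild-type call was lost in 19 of 26 alternative analyses, among them the model without any one of 8 of the 12 arrays and the model with Xist as a covariate (-0.09, limma adjusted p = 0.48). Xist, the transcript that marks cells of females in these mixed-sex pools, was itself lower at day 30 in wild type (-1.03, limma adjusted p = 0.03), and its part in the Nkx2-2 result was not tested further.

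Pax4 and Pax6 are paired-domain factors that act in different hormone cell types, and neither was called. Pax4 (probe set 10543530, chromosome 6) read 7.30, 7.05 and 6.93 in wild type and 7.00, 7.07 and 7.06 in the knockout at day 15, and 7.00, 7.01 and 7.06 in wild type and 7.03, 6.99 and 7.09 in the knockout at day 30. Its groups overlapped in every comparison, and its age change was -0.07 in wild type (95% interval -0.24 to 0.10) and -0.01 in the knockout (-0.18 to 0.16). Pax6 (probe set 10474312, chromosome 2) read 6.46, 6.43 and 6.39 in wild type and 6.68, 6.67 and 6.35 in the knockout at day 15, and 6.41, 6.28 and 6.51 in wild type and 6.44, 6.40 and 6.42 in the knockout at day 30. In the knockout at day 15, replicates 1 and 2 lay above all other arrays and replicate 3 lay among the day 30 values. The age change of Pax6 in the knockout was -0.15 (SE 0.09, limma adjusted p = 0.23), and without knockout day 15 replicate 3 it was -0.26 and was called (limma adjusted p = 0.019).

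Isl1, a LIM-homeodomain factor expressed in several hormone cell types and known to be needed for somatostatin cells in the mouse gut, fell by the same amount in both genotypes (probe set 10412335, chromosome 13). It read 7.31, 7.42 and 7.33 in wild type (mean 7.35 ± 0.06, SD, n = 3) and 7.42, 7.29 and 7.46 in the knockout at day 15. At day 30 it read 6.73, 6.91 and 6.88 in wild type (6.84 ± 0.10, SD, n = 3) and 6.96, 6.83 and 6.81 in the knockout. The ages did not overlap in either genotype, and the genotypes overlapped at both ages. The change was -0.52 in wild type (SE 0.07, limma adjusted p = 9.3e-05) and -0.52 in the knockout (SE 0.07, limma adjusted p = 8.9e-05). In the model that also held the smooth muscle mean, the wild-type value was 0.10 (SE 0.29) and the knockout value -0.06 (SE 0.22), neither of them called. With the enteric neuron mean it was -0.71 (SE 0.34) in each genotype, again not called. As given above, neither mean can be well separated from age.

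Rfx6, a winged-helix factor of the regulatory factor X family that acts in the formation of gastric inhibitory polypeptide cells, had the largest fitted age change of the 9 factors in both genotypes (probe set 10363090, chromosome 10). It read 7.11, 7.23 and 7.21 in wild type and 7.30, 7.38 and 7.36 in the knockout at day 15. At day 30 it read 6.34, 6.21 and 6.56 in wild type and 6.81, 6.61 and 6.51 in the knockout. All 6 arrays of day 30 lay below all 6 arrays of day 15. In wild type it fell by 0.82 (SE 0.09, limma adjusted p = 2e-05). In the knockout it fell by 0.70 (SE 0.09, limma adjusted p = 7.2e-05). In the model with the smooth muscle mean its call was lost, at -0.94 (SE 0.45, limma adjusted p = 0.51) in wild type and -0.79 (SE 0.35, limma adjusted p = 0.36) in the knockout. That mean did not overlap between ages in either genotype. The 3 calls shared by both genotypes, Rfx6, Isl1 and Neurod1, each held in 24 of 26 alternative analyses in each genotype; the exceptions were the models with the smooth muscle or the enteric neuron mean.

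Foxa2, the forkhead factor, was the only one of the 9 with a positive age change in wild type (probe set 10488374, chromosome 2). It read 7.49, 7.46 and 7.35 in wild type and 7.47, 7.35 and 7.59 in the knockout at day 15, and 7.89, 7.58 and 7.50 in wild type and 7.46, 7.56 and 7.66 in the knockout at day 30. The wild-type ages did not overlap, by the narrow gap between 7.49 and 7.50, and the knockout ages did. The change of 0.23 in wild type was not called (SE 0.10, limma adjusted p = 0.10), and that of 0.09 in the knockout was not called either (SE 0.10, limma adjusted p = 0.53). Without wild type day 30 replicate 3 the wild-type change was 0.31 and was called (limma adjusted p = 0.045), and without replicate 1 of that group, its highest array, it was 0.11 (limma adjusted p = 0.39). Counting Foxa2, 5 of the 9 factors had wild-type arrays that did not overlap between ages, against 43.8% of all genes, and 3 of 9 did in the knockout, against 42.8%.

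**Figure D2:**
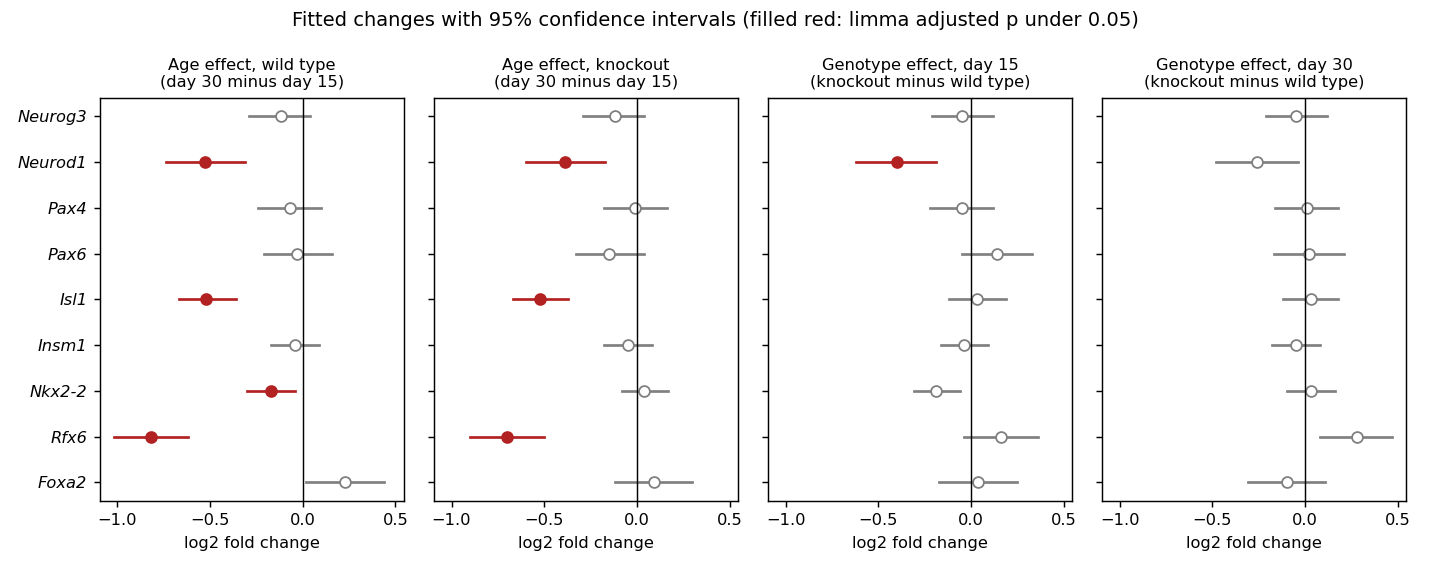
Fitted log2 fold changes of the 9 factors in the age and genotype comparisons. The horizontal axis is the log2 fold change, points are estimates, lines are 95% confidence intervals, and filled red marks a limma adjusted p under 0.05; Rfx6, Isl1 and Neurod1 lie left of 0 in both age panels, and Neurod1 alone is filled in the day 15 genotype panel.

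The question behind the genotype comparison was whether loss of Onecut2 changed the lineage factors. Neurod1 was the only factor called. At day 15 it was 1.32-fold lower in the knockout, a log2 difference of -0.40 (95% interval -0.62 to -0.19, limma adjusted p = 0.044). At day 30 the difference was -0.26 (95% interval -0.48 to -0.04, limma adjusted p = 0.30), and the knockout was lower at both ages. Averaged over both days the difference was -0.33 (SE 0.07, 1.26-fold, limma adjusted p = 0.016). The remaining 8 factors, Neurog3 among them, were not called at either age. So 1 of 9 factors was called lower and 0 higher at day 15, where 3.83% of all genes were called, 2.03% lower and 1.81% higher. At day 30, 0 of 9 were called in limma, where 1.98% of all genes were called, 0.943% lower and 1.04% higher. At an unadjusted p under 0.05, 2 of the 9 passed at day 30 (Neurod1 lower and Rfx6 higher), as did 11.2% of all genes. In the average over days 1 of 9 was called, and it was lower, where 5.34% of all genes were called and 2.86% were lower. The median difference over the 9 factors was -0.04 at day 15 and 0.01 at day 30, against -0.01 and 0.00 over all genes.

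The Neurod1 arrays did not overlap between genotypes at day 15, and at day 30 they did, since replicate 2 of the knockout reached 6.49. Without that array the day 30 difference was -0.39 and was called (limma adjusted p = 0.036), and without replicate 1 of the same group, its lowest array, it was -0.17 (limma adjusted p = 0.68). The day 15 difference lay between -0.46 and -0.33 in 26 alternative analyses and was called in 10 of them. It was lost without any of the 6 arrays of day 15 (limma adjusted p from 0.060 to 0.17) and without any of the 3 wild-type arrays of day 30 (0.052 to 0.064). The day 15 genotype difference and the wild-type age change share the wild-type day 15 arrays, so they are not independent results. The mean of the pancreatic acinar genes was also lower in the knockout at day 15, as given above. Among them Cela1 differed by -1.06 (SE 0.27, limma adjusted p = 0.051) and Ctrl by -0.89 (SE 0.24, limma adjusted p = 0.07). Cpa3 differed by -0.04 (SE 0.10, limma adjusted p = 0.92), and none of these genes was called. With the acinar mean as a covariate the Neurod1 difference was -0.35 (SE 0.12) and not called (limma adjusted p = 0.32). The islet genes, nearer in cell type, had a mean of 7.49 ± 0.03 in wild type and 7.44 ± 0.11 in the knockout at day 15 (SD, n = 3), with none of the 8 called between genotypes at either age (1 of 8 at an unadjusted p under 0.05 in limma at each age). The log2 of their summed levels was 12.29 to 12.43 in wild type and 12.03 to 12.19 in the knockout at day 15. The highest genes weigh most in that sum. Whether the listed genes are specific to islets in these segments was not examined. The enteric neuron mean was 7.29 in both genotypes at day 15, but its genes did not all move alike: Ret, a receptor of enteric neurons and their precursors, was higher in the knockout by 1.15 (SE 0.13, limma adjusted p = 0.00019), and the other 10 were not called, with a median over the 11 of -0.12. The smooth muscle mean was 10.48 ± 0.05 in wild type and 10.26 ± 0.09 in the knockout (SD, n = 3), and with that mean in the model the Neurod1 difference was -0.35 (SE 0.19) and not called (limma adjusted p = 0.53). Neither the muscle nor the acinar mean overlapped between genotypes at day 15. Over all genes, day 15 calls went from 764 to 64 with the muscle mean and to 222 with the acinar mean. These models cannot cleanly separate those means from genotype, and the lost calls decide nothing. Other cell types differed at day 15 too. Of 7 Paneth cell genes 6 were called higher in the knockout, and their mean was 9.09 to 9.31 in wild type and 10.32 to 10.56 in the knockout. Of 11 stomach and Brunner gland genes 3 were called lower, with means of 9.81 to 10.03 and 9.32 to 9.96. Of 4 measured enteric glia genes (of 5 listed) 1 was called, S100b, with a difference of -1.70 (SE 0.11, limma adjusted p = 2.1e-06). The part of any of these tissues in the Neurod1 difference was not tested.

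Rfx6 was higher on average in the knockout, by 0.16 at day 15 (95% interval -0.04 to 0.36) and 0.28 at day 30 (0.08 to 0.47), and neither difference was called (limma adjusted p = 0.48 and 0.21). Its day 15 arrays did not overlap between genotypes and its day 30 arrays did. Averaged over both days the difference was 0.22 (SE 0.06, limma adjusted p = 0.079). That average was called without wild type day 30 replicate 3 (0.26, limma adjusted p = 0.027) and without knockout day 30 replicate 3 (0.25, limma adjusted p = 0.049). Nkx2-2 was lower in the knockout at day 15, where its arrays did not overlap, by a difference of -0.19 that was not called (95% interval -0.31 to -0.06, limma adjusted p = 0.12). At day 30 its difference was 0.03 (95% interval -0.10 to 0.16). In all, 3 of 9 factors had arrays that did not overlap between genotypes at day 15, against 21.3% of all genes, and 0 of 9 at day 30, against 15.4%. Isl1 differed by 0.03 at each age, with intervals of -0.12 to 0.19 at day 15 and -0.12 to 0.18 at day 30. Neurog3 differed by -0.05 at each age, with an interval of -0.21 to 0.12 at both. Differences of Isl1 or Neurog3 as large as that of Neurod1 at day 15 lay outside these intervals. Those inside the intervals could not be told from 0 with 3 pools a group. Of the 9 factors, 8 had a mean level below the 50th percentile of gene means, with Neurog3 at percentile 33.2. Whether low signal made their measured differences smaller was not tested.

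The genotype difference itself did not pass the test of change between ages for any of the 9 factors, where 0.456% of all genes were called. At an unadjusted p under 0.05, 1764 genes passed that test, Nkx2-2 among them with a change of 0.22 (SE 0.08, limma adjusted p = 0.44). For Neurod1 the change between ages was 0.14 (95% interval -0.16 to 0.45), and for Rfx6 it was 0.12 (-0.17 to 0.40). An age dependence of the Neurod1 difference was thus not shown.

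Other regulators of the lineage were read from a list of 28, of which 23 were measured. In wild type 5 fell and 3 rose with age, and in the knockout 6 fell and 3 rose, with medians of -0.02 and 0.00. Etv1, an ETS-domain factor expressed in hormone cells, fell by 0.88 in wild type and 0.85 in the knockout (SE 0.08 in both, limma adjusted p = 3.3e-06 and 4.6e-06). St18, a zinc-finger factor of the Myt family, fell by 0.22 and 0.27 (limma adjusted p = 0.02 and 0.0063). Pdx1, the homeodomain factor of duodenum and pancreas, rose by 0.47 and 0.44 (limma adjusted p = 0.00023 and 0.00038). Gata4, which marks the proximal intestine, rose by 0.30 and 0.27 (limma adjusted p = 0.0027 and 0.0058). Atoh1, which selects the secretory lineages as a whole, changed by 0.09 in wild type (limma adjusted p = 0.40) and rose by 0.30 in the knockout (limma adjusted p = 0.0089). The list held changes in both directions with age, as did all genes. Of all genes, 17.0% were called lower and 12.3% higher in wild type, and 17.2% and 13.8% in the knockout. The same shares stand beside the age counts of the Notch, hormone and granule lists below. For genotype, Onecut2 was the only gene of the 23 called at day 15 and at day 30.

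Notch signalling holds progenitors back from the endocrine fate, through ligands on neighbouring cells and repressors such as Hes1. All 16 listed genes of the pathway were measured. In wild type 6 fell and none rose with age, with a median of -0.14, and in the knockout 8 fell and 2 rose, with a median of -0.13. The ligand gene Jag1 fell by 0.49 in wild type and 0.24 in the knockout (limma adjusted p = 4.9e-05 and 0.0094). Nrarp, a feedback inhibitor that Notch induces, fell by 0.60 and 0.51 (limma adjusted p = 4.1e-05 and 0.00015). Dll1, a ligand gene that secretory progenitors express, fell by 0.21 and 0.47 (limma adjusted p = 0.042 and 0.00031). Hes1, the repressor of Neurog3, was not called in any comparison, with changes of 0.01 and -0.02 with age and 0.01 and -0.02 between genotypes at days 15 and 30. Between genotypes 1 gene of the 16 was called at day 15, the ligand gene Dll4, which was 0.23 lower on the log2 scale in the knockout (a difference of -0.23, limma adjusted p = 0.049), and none was called at day 30. Several of these genes are also made in vessels, muscle and nerve.

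Hormone and granule genes lie at the end of this lineage. Of 12 hormone genes, 5 fell with age in wild type and 6 in the knockout, with none rising and medians of -0.30 and -0.38. Gip, encoding gastric inhibitory polypeptide, fell by 0.86 in wild type and 1.11 in the knockout (limma adjusted p = 2.2e-07 and 2.3e-08). Sst, encoding somatostatin, fell by 0.80 and 0.98 (limma adjusted p = 6.1e-06 and 1e-06). Sct, encoding secretin, changed by 0.00 and -0.01 with age (limma adjusted p = 0.98 and 0.93). Of 17 measured granule and secretion genes (of 20 listed), 13 fell and 1 rose in each genotype, with medians of -0.44 and -0.37. Chga, encoding chromogranin A of secretory granules, fell by 0.87 in wild type and 0.59 in the knockout (limma adjusted p = 4.9e-07 and 1.4e-05).

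**Figure D3:**
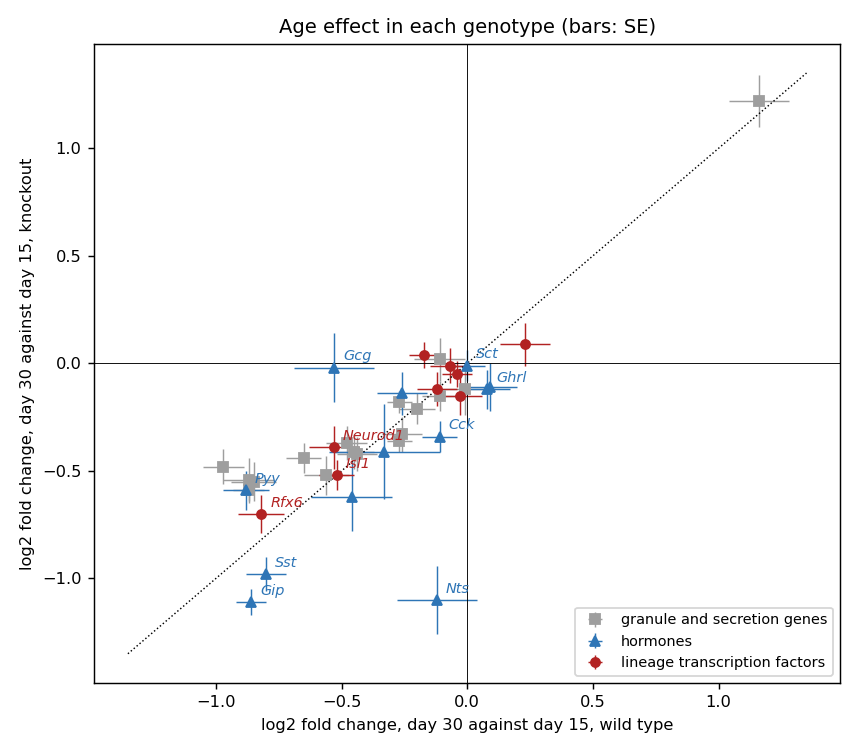
Age changes of the lineage factors, hormone genes and granule genes in each genotype. The horizontal axis is the log2 fold change from day 15 to day 30 in wild type, the vertical axis the same in the knockout, bars are SE, and the dotted line marks equal change; Rfx6, Isl1 and Neurod1 lie in the lower left with most granule genes and with Gip, Sst and Pyy, and the granule gene at the upper right is Ddc.

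Between genotypes the hormone genes moved in both directions while the lineage factors other than Neurod1 were not called. At each age 4 of the 12 hormone genes were called higher in the knockout, Cck, Gip, Gcg and Nts, and 2 were called lower, Sct and Ghrl. Cck, encoding cholecystokinin, was higher by 0.61 at day 15 and 0.38 at day 30 (limma adjusted p = 0.00035 and 0.016). Sct fell by 0.31 and 0.32 in the knockout relative to wild type (limma adjusted p = 0.03 and 0.036). Cck and Sct, whose cells are known to need Neurod1, differed in opposite directions at both ages. Any link of these differences to Neurod1 was not tested. Tph1, encoding the enzyme that starts serotonin synthesis in enterochromaffin cells, was lower, with differences of -0.88 and -0.55 (limma adjusted p = 0.00027 and 0.012). Sst did not differ by a called amount, at 0.12 and -0.06 (limma adjusted p = 0.55 and 0.87), as was the case for Isl1. Of the 17 granule genes 3 were called lower at day 15 (Rab3c, Scg3 and Tph1) and 1 at day 30 (Tph1), and none was called higher.

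**Figure D4:**
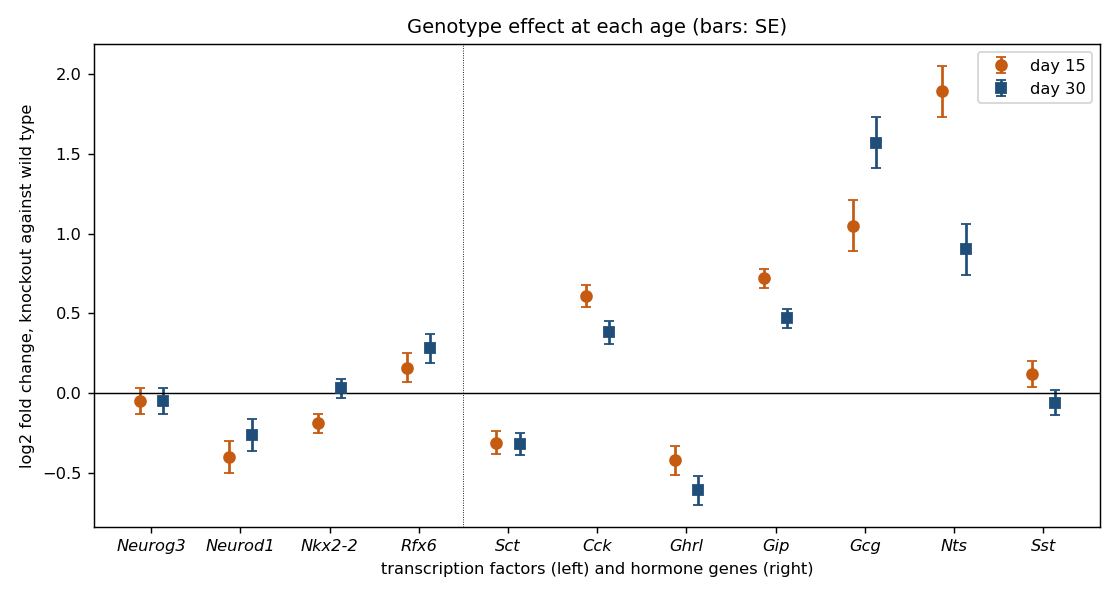
Genotype differences of 4 lineage factors and 7 hormone genes at each age. The vertical axis is the log2 fold change of the knockout against wild type, circles are day 15, squares are day 30 and bars are SE; the 4 factors lie between -0.40 and 0.28, while Nts reaches 1.89 at day 15 and Gcg 1.57 at day 30.

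The likeness of the factors to one another and to other genes was described by Pearson's r over the 12 arrays and over the 12 deviations from group means, in which the age and genotype steps are removed. Over the arrays as they stand, 5 of 36 pairs of factors had r over 0.5, led by Isl1 with Rfx6 at 0.93, which was 0.31 within groups. Neurod1 with Isl1 had 0.69, which was 0.05 within groups. Both pairs were thus much less alike once the group steps were removed. Within groups the highest value was 0.73, between Pax6 and Insm1, and the lowest was -0.72, between Neurod1 and Nkx2-2. Over all genes, those most like Isl1 were Arhgap6 (0.99), Tns2 (0.98) and Sst (0.98), with 0.92, 0.75 and 0.80 within groups. Those most like Rfx6 were Mep1a, Dnm1 and Map3k13 (0.98 each), with 0.59, 0.69 and 0.64 within groups. For Neurod1 they were Akr1c14 (0.97), Aasdhppt (0.96) and Pygl (0.95), with 0.87, 0.94 and 0.79 within groups. For the 6 other factors the highest r was 0.91 (Neurog3 with Epha5 and Foxa2 with Antxrl), 0.88 (Nkx2-2 with Zfpm2 and Pax6 with Olfr776) and 0.86 (Insm1 with Mir107 and Pax4 with Ccdc85b). These are the highest of all genes searched, over 12 arrays that share their groups, and no p is given.

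**Figure D5:**
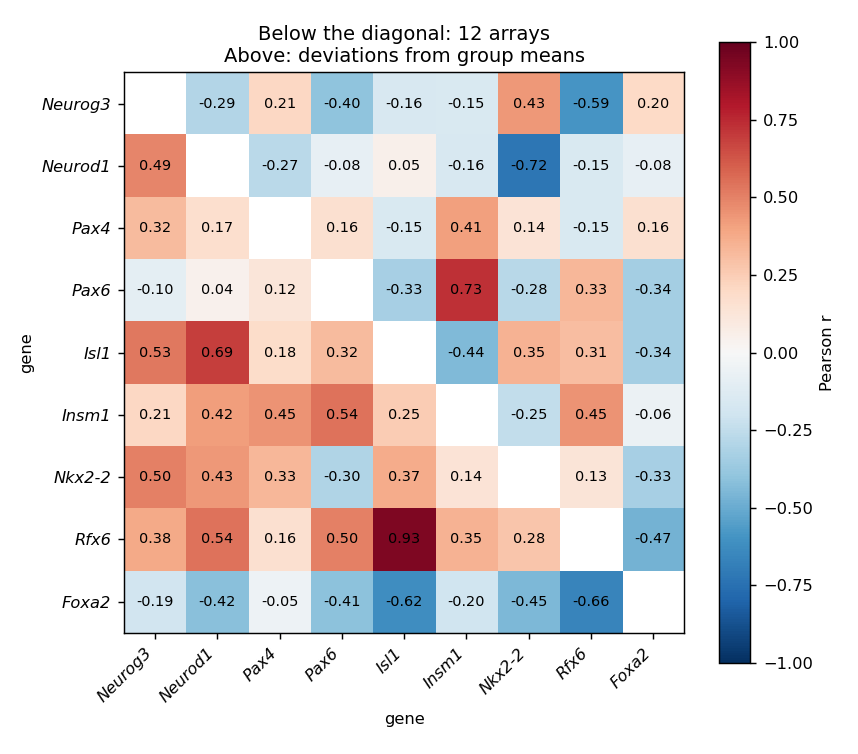
Pearson's r between the 9 factors. Rows and columns are the factors, the colour scale runs from -1 to 1, cells below the diagonal use the 12 arrays and cells above it use deviations from group means; the 0.93 of Isl1 with Rfx6 below the diagonal becomes 0.31 above it.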

How the data were processed

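Total RNA (5.5 micrograms per array, extracted with Trizol) was labelled as biotinylated cRNA and hybridised to mouse whole-transcript gene arrays, per the labels' protocols. The deposited values were made with Affymetrix Expression Console 1.1 and RMA (background correction, quantile normalization and probe summary), per the submitters' processing notes. The deposited log2 values are RMA summaries per the submitters' processing notes, though the file does not name the base of its logarithm, which was taken from RMA and from the range. The sources used here give no scan dates and no genome build for the array's annotation, and GRCm38.p6 is the build of the RefSeq promoters alone. The number of arrays limits the precision.

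Of 35557 features, 21789 had 1 gene symbol, 1621 had several and 12147 had none listed. The feature of highest mean stood for each of 19938 genes. The model in limma 3.58.1 (R 4.3.3) held 4 group means over 12 arrays (8 residual degrees of freedom, two-sided, Benjamini-Hochberg adjustment over all genes). Alternatives changed the variance model, the filter on low values, the choice of features or the scale, added a covariate or the replicate number, or left out an array. In data simulated for the day 15 genotype comparison (19938 genes), 67 genes were changed by 0.3, 67 by 0.5 and 66 by 1 on the log2 scale. Of these, 32.8%, 79.1% and 98.5% were called. At day 15 the array data gave 764 called genes, more than were changed in the simulation, so these shares need not carry over.

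The members and lists were chosen with earlier results of these data known. The named genes are all 9 members, the 3 Onecut genes, and leading or most strongly called genes of each list. Promoters were cut to the bases before the start and searched by letters.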

Additional observations from a re-analysis of the deposited data

How the results depend on the processing

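Of 1392 values for single factors under the alternatives, 1334 stayed on their side of the threshold, 47 lost a call in the same direction, 9 gained one and 2 had been called and turned sign. With uncalled values included, 49 had the opposite sign at 2 decimals, among them the age change of Neurog3 (-0.22 to 0.34 in wild type, -0.22 to 0.22 in the knockout) and of Foxa2 in wild type (-0.02 to 1.03). Testing only genes at or above the 50th percentile of mean level kept 1 factor (Insm1) and so gave 0 calls in the wild-type and knockout age comparisons, the day 15 genotype comparison and the average over days. Adding the smooth muscle mean to the model gave 0 in the same 4 comparisons, and the enteric neuron mean (chosen after seeing the data) gave 0 in both age comparisons and at day 15. The day 15 count was also 0 with all features tested, quantile normalization again, equal array medians, the acinar mean or Xist (chosen after seeing the data) as a covariate (Neurod1 adjusted p in limma 0.11, 0.11, 0.063, 0.32 and 0.055). The average over days gave 0 with the acinar mean and 2 with array weights, where Rfx6 joined at 0.24 (limma adjusted p = 0.033). Leaving out 1 array at a time gave 3 to 5 factors (wild-type age), 3 to 4 (knockout age), 0 to 1 (genotype at day 15), 0 to 1 (at day 30), 0 to 0 (change between ages) and 1 to 2 (average). Called values of named genes that turned sign, with the cause not tested, were, with the smooth muscle mean in the model, Isl1 0.10 and Nkx2-2 0.08 (wild-type age) and Cck 0.17, Jag1 0.04 and Ins2 0.31 (knockout age), and, with the enteric neuron mean, Pdx1 -0.13 in wild type and -0.15 in the knockout and Ins2 0.06 in the knockout. Replicate numbers did not pair the samples: same-numbered deviations correlated between -0.25 and 0.36, and in no comparison did all 3 pairs pass 0.1. With the replicate block the counts of factors called were 3, 3, 1, 0, 0 and 1 in the order above, with Nkx2-2 in wild type at limma adjusted p = 0.053, and 5726, 6039, 611, 331, 80 and 898 genes of all were called. In the simulated day 15 genotype comparison with 3 arrays a group, changes of 0.3 were often missed, and the other comparisons were not simulated.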
